A study of Mus musculus with 6 samples.

Results

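The genes described here encode collagens, laminins and the glycoproteins, proteoglycans and enzymes that build the extracellular matrix. They were chosen by symbol from the table of read counts, and 87 of its 24794 genes are protein-coding genes that the symbol rule takes. Polyadenylated RNA was sequenced from Lewis lung carcinoma (LLC) cells, a widely used mouse lung tumour line of C57BL/6 origin. Cells of 3 libraries had been transfected with miR-291-3 mimics, synthetic duplexes that stand in for the microRNA miR-291a-3p named in the design text, and cells of 3 libraries with a mimics control. All 6 libraries come from this one line, no dose or time is given in the labels, and they do not say whether the libraries were grown as separate cultures. The p-values therefore reflect only how far these libraries differ, which may be technical. Depth was 25376993 to 29058948 counts per mimic library and 28318155 to 32963986 per control library.

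The matrix around cells has a sheet-like form, the basement membrane, and an interstitial form made of fibres. In the basement membrane a net of type IV collagen and a net of laminin trimers, each with an alpha, a beta and a gamma chain, are joined by nidogen and the proteoglycan perlecan. In interstitial matrix fibrillar collagens assemble with fibronectin, type VI collagen and elastic fibre proteins. Inside the cell, prolyl and lysyl hydroxylases modify collagen chains so that the triple helix is stable, and outside it lysyl oxidases cross-link them. Tumour cells both secrete matrix and meet that of the host, and only the transcripts of the cultured cells were measured here.

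The transfected mimic is read through its seed, bases 2 to 8, which pairs with messenger RNAs. The mature sequence in RefSeq (GRCm38.p6) is shown with the seed in capitals, beside the other mouse microRNAs of that table with the same 7 bases, because the matches sought in the matrix genes follow from it. The labels do not give the sequence of the mimic itself.
miR-291a-3p: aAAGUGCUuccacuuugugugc
miR-294-3p: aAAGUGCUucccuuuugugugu
miR-295-3p: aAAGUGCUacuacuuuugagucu
miR-302b-3p: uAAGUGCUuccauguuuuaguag
miR-302d-3p: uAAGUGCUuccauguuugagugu

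The line had almost no transcripts of the epithelial adhesion genes, and many of Krt8 and Vim. Epcam had 0 to 1 counts per mimic library and 0 to 3 per control library, and the E-cadherin gene Cdh1 had 1 to 4 per mimic library and 1 to 5 per control library. The keratin gene Krt8 had 13685 to 15560 counts per mimic library and 14203 to 16346 per control library, and the mesenchymal filament gene Vim 46565 to 53118 per mimic library and 59602 to 68899 per control library. The surfactant gene Sftpb had 1 count in all 6 libraries together. Fibroblasts are the usual source of many matrix transcripts. Of 8 fibroblast markers, 3 of which (Lum, Dcn and Col1a1) are also matrix genes described here, 4 were tested. Of these 3 rose (Pdgfrb, Acta2 and Lum) and 1 fell (Pdgfra), and the summed level of the list was 7.54 to 8.06 FPKM in mimic libraries and 6.77 to 7.33 FPKM in control libraries. Acta2 had only 10 to 17 counts per mimic library and 0 to 5 per control library. Lum was low as well, with 37 to 53 counts per mimic library and 20 to 25 per control library. Fap had at most 1 count per library and Dcn at most 3, and Thy1 was not analysed here. Of 7 leukocyte markers 4 were tested and 2 of them fell, with sums of 5.9 to 6.33 FPKM in mimic libraries and 9.47 to 11 FPKM in control libraries. Ptprc and Adgre1 were at 0 in every mimic library and in 2 of 3 control libraries. Control replicate 2 alone held them (4 and 7 counts). It also had the most Lyz2 counts, 208 against 144 and 154 in the other control libraries. Of the tested epithelial markers 2 of 2 rose, with log2 changes, mimic over control, of 0.16 for Krt8 and 0.90 for the much lower Krt18. Of the mesenchymal markers 4 of 4 fell: Vim (-0.14), Twist1 (-0.23), Zeb1 (-0.28) and S100a4 (-0.73). Mesenchymal sums were 389 to 403 FPKM in mimic libraries and 454 to 464 FPKM in control libraries. The 1 tested endothelial marker did not pass. Beside these counts, 24.3% of all 13779 genes tested rose and 24.8% fell. The part of such markers in the changes of the matrix genes was not tested. In bulk RNA fewer cells of a type and less RNA per cell cannot be told apart.

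Matrix genes went both ways in nearly equal numbers. Of the 87 genes 58 had enough counts to be tested, and with the mimic 24 of these rose and 23 fell, 41.4% and 39.7% of those tested (edgeR's quasi-likelihood test with Benjamini-Hochberg adjustment over all 13779 genes tested, adjusted p under 0.05). Among all genes tested 24.3% rose and 24.8% fell. Matrix genes are better expressed than most, and where the mean was 2 CPM (counts scaled to library size) or more 43.1% and 41.2% of 51 matrix genes rose and fell, against 29.2% and 28% of all such genes. The median log2 change, mimic over control, was 0.05 over the 58 and -0.01 over all genes tested. Of the 47 genes called, 45 had groups that did not overlap (41 among the 51), a state that 46.7% of all genes tested reached together with a call, as did 54.6% of those with at least 2 CPM. Changes were modest. Of the 47, 13 were below 1.2-fold, and 6 rose and 6 fell by at least 1.5-fold (1.45% and 4.27% of all genes tested). Of the 51 with at least 2 CPM, 4 rose and 4 fell by that much, against 0.924% and 2.72% of all such genes. The median change was 33.2% for the risen and -23.3% for the fallen. The 29 genes that were not tested had at most 14 counts in any library, except Col1a1. They include 11 of the 18 other collagens and 6 of the 11 basement membrane and network collagens, and 12 genes of other roles, among them Postn, Nid2, Lama1, Lama2 and Loxl1.

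**Figure D1:**
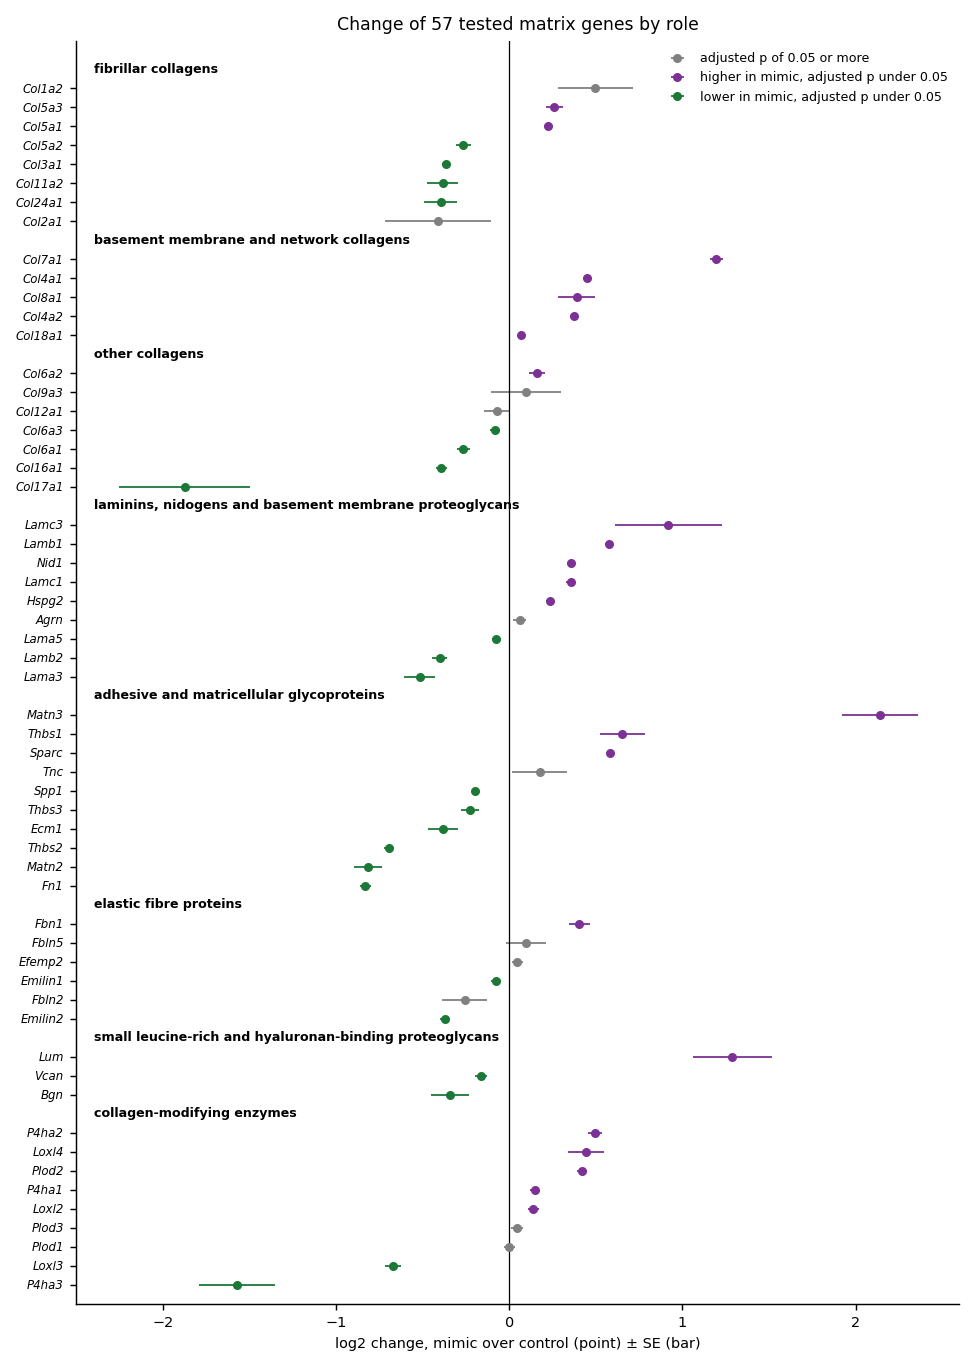
Log2 change of 57 of the 58 tested matrix genes, mimic over control (point), with its SE (bar), grouped by role; colour gives the call at an adjusted p under 0.05. All 5 tested basement membrane and network collagens lie right of 0, while 4 of 8 fibrillar collagens are called on the left and 2 on the right.

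In FPKM, counts scaled to library size and gene length, the most abundant matrix transcript by far was Spp1, which encodes osteopontin, a secreted phosphoprotein that binds integrins. It had 623, 612 and 599.8 FPKM in the mimic libraries, against 725, 720.1 and 713 FPKM in the control libraries, so that every mimic library was below every control library. Sparc, which encodes a calcium-binding matricellular protein that handles collagen, was the other gene above 100 FPKM, with 135 ± 2.39 FPKM in mimic libraries and 92.5 ± 1.41 FPKM in control libraries (SD, n = 3 each). Next came Col4a1 with 72.3 ± 0.692 FPKM in mimic libraries and 54.3 ± 1.74 FPKM in control libraries, Col4a2 with 51.1 ± 0.489 FPKM in mimic libraries and 40.4 ± 1.14 FPKM in control libraries and Col3a1 with 38.4 ± 0.926 FPKM in mimic libraries and 50.7 ± 2 FPKM in control libraries. The order of Col4a2 and Col3a1 differed between the groups: Col4a2 was above Col3a1 in each mimic library and below it in each control library. Of the 22 genes with a mean of at least 10 FPKM, 12 rose, 7 fell and 3 did not pass the test. The share called grows with level, from 49.1% of all genes tested to 57.2% of those with at least 2 CPM. It was not computed for all genes at 10 FPKM.

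**Figure D2:**
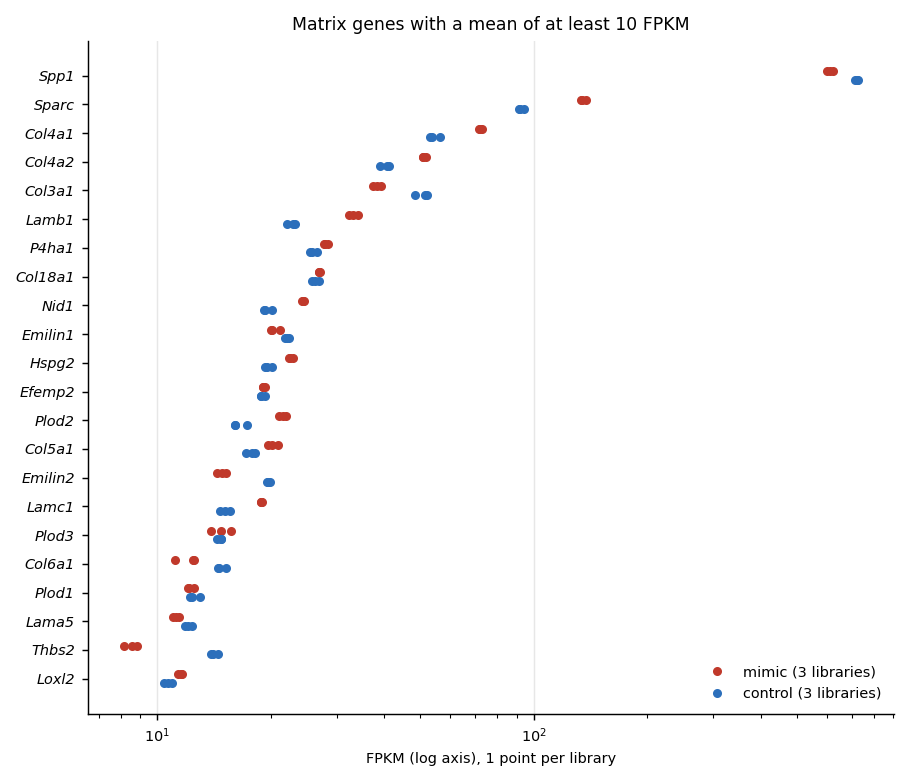
FPKM (horizontal log axis) of the 22 matrix genes with a mean of at least 10 FPKM, 1 point per library. In the row of each gene the mimic points are drawn above the control points, whatever their level. Spp1 stands at 612 FPKM in mimic and 719 FPKM in control libraries on average, and Thbs2 shows a clear gap, with 8.53 FPKM in mimic and 14.1 FPKM in control libraries.

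As a share of raw counts the 87 genes together took 0.648% ± 0.00656 in mimic libraries and 0.636% ± 0.00741 in control libraries (SD, n = 3 each). These shares lack the scaling between libraries used for CPM. With it, the summed CPM was 6581 to 6669 in mimic libraries and 6184 to 6325 in control libraries. Spp1 fell, and the other 86 genes took 0.534% ± 0.00436 of mimic counts and 0.4996% ± 0.00638 of control counts. The make-up differed. Basement membrane and network collagens took 0.129% ± 0.00125 of mimic counts and 0.102% ± 0.00225 of control counts, fibrillar collagens 0.0712% ± 0.00191 of mimic counts and 0.0842% ± 0.00273 of control counts, and laminins 0.0739% ± 0.000303 of mimic counts and 0.0619% ± 0.00131 of control counts. Each of these 3 differences is larger than the spread between libraries, and no test was made of the sums, which weigh long and abundant transcripts most.

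In the count test 24.3% of all genes tested rose, or 29.2% of those with at least 2 CPM. In the role group of basement membrane and network collagens, drawn up with earlier results known, all 5 tested genes rose. The leading change was that of Col7a1 (chr9:108953586-108984875, GRCm38), the collagen of the anchoring fibrils that tie skin basement membrane to the dermis, with 73.4, 73.1 and 69.7 CPM in the mimic libraries, against 32.6, 31.8 and 30.0 CPM in the control libraries. That is a 2.29-fold rise, a log2 change of 1.2 ± 0.04 (SE) with adjusted p = 4.03e-21 (edgeR). Col4a1 and Col4a2 encode the 2 chains of the common type IV trimer, the net that all basement membranes share. Col4a1 had 619, 623 and 627 CPM in the mimic libraries, against 452, 444 and 475 CPM in the control libraries. Col4a2 had 389, 383 and 399 CPM with the mimic and 304, 291 and 309.7 CPM with the control. Neither pair of groups overlapped, and the log2 changes of 0.45 ± 0.02 (SE) and 0.37 ± 0.02 (SE) were close (adjusted p = 5.4e-17 and 1.28e-14, edgeR). Col8a1, a short-chain network collagen of vessel walls and cornea, was low at 6.74, 6.68 and 7.27 CPM with the mimic and 4.85, 4.79 and 6.1 CPM with the control, and its log2 change was 0.39 ± 0.11 (SE). Col18a1, the source of the fragment endostatin, rose by a log2 change of only 0.07, and this call was lost with total counts as the only scaling (log2 change 0.01, adjusted p = 0.632, edgeR) and without control replicate 3 (log2 change 0.06, adjusted p = 0.0756). With limma on log2(FPKM + 1) neither Col8a1 (adjusted p = 0.0633) nor Col18a1 (adjusted p = 0.272) passed, which left 3 risen genes. The other 6 genes of the group, among them Col4a3 to Col4a6, had too few counts to be tested.

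Laminin genes went both ways. The 2 tested alpha chain genes fell, and the 2 tested beta chain genes went opposite ways. Lamb1, the beta chain of most laminins, had 379.7, 387 and 373 CPM in the mimic libraries, against 261, 255 and 248 CPM in the control libraries, and its log2 change was 0.58 ± 0.02 (SE) (adjusted p = 1.62e-19, edgeR). Lamb2, the beta chain of synaptic and kidney laminins, had 33.2, 32.3 and 33.1 CPM with the mimic and 46.2, 41.3 and 42.8 CPM with the control, a log2 change of -0.40 ± 0.04 (SE). Both pairs of groups were apart, in opposite directions. Lamc1, the common gamma chain, had 181, 179 and 182 CPM with the mimic and 141, 145 and 137 CPM with the control (log2 change 0.36). Lama3, an alpha chain of epithelial laminins, had 6.25, 6.39 and 6.36 CPM with the mimic and 9.4, 9.09 and 8.77 CPM with the control and fell by 0.52 on the log2 scale, while Lamb3, a beta chain of epithelial laminins, had at most 5 counts in any library. Lama5, the alpha chain of laminin-511, had a log2 change of -0.07, a call that was lost without mimic replicate 1 (adjusted p = 0.0909) or control replicate 1 (adjusted p = 0.0916, edgeR). Lamc3 was under 1 CPM in every library and rose 1.89-fold, with 0.722, 0.686 and 0.808 CPM with the mimic and 0.465, 0.347 and 0.357 CPM with the control, and its call was lost without mimic replicate 3, control replicate 2 or control replicate 3 (adjusted p = 0.0529, 0.0509 and 0.0534).

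Of the genes for nidogens and basement membrane proteoglycans Nid1 and Hspg2 rose, Agrn did not pass, and Nid2 had at most 2 counts in any library. Nid1, which encodes nidogen-1, had 195, 195 and 198 CPM in the mimic libraries, against 158, 150.0 and 151 CPM in the control libraries. All 3 mimic libraries were higher, and the log2 change was 0.36 ± 0.02 (SE) (adjusted p = 1.55e-13, edgeR). Hspg2, the gene of perlecan, the main heparan sulfate proteoglycan of basement membranes, had a log2 change of 0.23. Agrn, the gene of agrin, had a log2 change of 0.06 that did not pass (adjusted p = 0.167), with overlapping groups. In all, 6 of the 10 tested genes for laminins, nidogens and basement membrane proteoglycans rose and 3 fell, with a median log2 change of 0.30. Over all genes tested 24.3% rose and 24.8% fell.

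Of the 8 tested fibrillar collagen genes 4 fell, 2 rose and 2 did not pass (24.8% of all genes tested fell and 24.3% rose). Their median log2 change was -0.32. Col3a1, the collagen of fine reticular fibres, was the most abundant of them and had 446, 431 and 428 CPM in the mimic libraries, against 578, 566 and 537 CPM in the control libraries. The groups were far apart, and the log2 change was -0.37 ± 0.02 (SE) (adjusted p = 2.53e-14, edgeR). Col24a1 had 7.34, 7.04 and 5.87 CPM with the mimic and 8.43, 8.67 and 9.43 CPM with the control and Col11a2, a minor fibril collagen of cartilage, 6.46, 6.21 and 6.64 CPM with the mimic and 8.7, 8.36 and 8.18 CPM with the control. These 2 low genes fell by similar amounts, with log2 changes of -0.40 ± 0.10 (SE) and -0.38 ± 0.09 (SE). The 3 chains of type V collagen, which sets the width of fibrils, did not move together: Col5a2 fell (log2 change -0.27) while Col5a1 and Col5a3 rose (0.23 and 0.26). Col2a1, the cartilage collagen, did not pass (log2 change -0.41 ± 0.31, adjusted p = 0.286). Type I collagen, the main collagen of connective tissue, was almost silent. Col1a2 had 35, 49 and 36 counts in mimic libraries, against 31, 30 and 36 in control libraries, and did not pass (adjusted p = 0.0572). Leaving out mimic replicate 3 gave Col1a2 adjusted p = 0.0397 (edgeR) and 4 risen fibrillar genes in place of 2. The 2 added genes were Col1a2 and Col1a1, which then passed the filter on low counts. With all 6 libraries Col1a1 fell below that filter. It was uneven, with 22, 104 and 3 counts in mimic libraries, against 2, 1 and 5 in control libraries. Mimic replicate 3 lay within the control range. With no filter Col1a1 had a log2 change of 4.14 ± 0.37 (SE), and 2.40 ± 0.60 without mimic replicate 2, which held most of the counts.

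Among the other collagens 4 of 7 tested genes fell, 1 rose and 2 did not pass. The shares over all genes tested were 24.8% fallen and 24.3% risen. Type VI collagen forms beaded filaments near the cell surface. Col6a1, its most abundant chain by FPKM, had 62.9, 62.5 and 57 CPM in the mimic libraries, against 75.4, 71.3 and 72.1 CPM in the control libraries. Every mimic library was lower (log2 change -0.26 ± 0.04 (SE), adjusted p = 3.78e-07, edgeR). Its partner Col6a2 had the opposite sign, a log2 change of 0.16, but this call was lost with total counts only (adjusted p = 0.0763), and leaving out mimic replicate 1 gave adjusted p = 0.0537. For Col6a3 the groups overlapped (log2 change -0.08), and the call was lost without mimic replicate 3 (log2 change -0.04, adjusted p = 0.347), control replicate 1 (adjusted p = 0.112) or control replicate 2 (adjusted p = 0.0759). Col16a1, a collagen that lies along fibrils, fell with 59.1, 58.1 and 58 CPM with the mimic and 78.9, 74.5 and 76.5 CPM with the control, a log2 change of -0.39 ± 0.03 (SE). Col17a1, the transmembrane collagen of hemidesmosomes, was close to absent at 6, 7 and 3 counts in mimic libraries, against 24, 24 and 20 in control libraries, and its log2 change was -1.88 ± 0.38 (SE) (adjusted p = 0.000106). Col12a1 and Col9a3 did not pass (log2 changes of -0.07 and 0.09). With each library left out in turn 0 to 2 genes of this group rose.

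Of the 10 tested adhesive and matricellular glycoprotein genes 6 fell and 3 rose, where 24.8% of all genes tested fell and 24.3% rose. Among matrix genes with at least 2 CPM the largest rise and the largest fall were both in this group. Fn1 (chr1:71585520-71653200, GRCm38) encodes fibronectin, the fibre-forming ligand of several integrins, and had 66.5, 63.3 and 62.5 CPM in the mimic libraries, against 119, 112 and 109.9 CPM in the control libraries. The highest mimic value was far below the lowest control value, and the log2 change was -0.83 ± 0.03 (SE) (adjusted p = 7.11e-19, edgeR). Thbs2, a thrombospondin that restrains vessel growth, had 71.8, 68.4 and 66.8 CPM with the mimic and 109.8, 114 and 111 CPM with the control, a log2 change of -0.69 ± 0.03 (SE). Matn2, a matrilin found in many tissues, had 6.94, 7.73 and 6.81 CPM with the mimic and 12, 12.8 and 13 CPM with the control (log2 change -0.82 ± 0.08 (SE)). In each of these genes all 3 mimic libraries lay below all 3 control libraries. Ecm1 had 7.5, 6.79 and 7.94 CPM with the mimic and 9.69, 9.12 and 10.1 CPM with the control (log2 change -0.38) and Thbs3 a log2 change of -0.23. Spp1, the most abundant, had 1187, 1153 and 1153 CPM with the mimic and 1348, 1331 and 1328 CPM with the control, and fell by 0.20 on the log2 scale.

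The 3 risen glycoprotein genes were Sparc, Thbs1 and Matn3. Sparc had 583, 596 and 594 CPM in the mimic libraries, against 391, 399.9 and 394 CPM in the control libraries. Its groups did not overlap, and the log2 change was 0.58 ± 0.02 (SE) (adjusted p = 6.6e-21, edgeR). Thbs1, a thrombospondin that activates latent TGF-beta, had 4.69, 4.44 and 4.85 CPM with the mimic and 2.62, 3.43 and 2.85 CPM with the control, a 1.57-fold rise. Matn3 (chr12:8947929-8972028, GRCm38), a matrilin of cartilage, was low in control libraries and had 75, 96 and 98 counts in mimic libraries, against 16, 35 and 18 in control libraries. After scaling these were 3.01, 3.47 and 3.44 CPM with the mimic and 0.531, 1.21 and 0.535 CPM with the control. The groups did not overlap although control replicate 2 stood above the other control libraries, and the log2 change of 2.14 ± 0.22 (SE) was the highest of the 58. Tnc, the gene of tenascin-C, did not pass (log2 change 0.18, adjusted p = 0.388).

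Of the 6 tested elastic fibre genes 2 fell, 1 rose and 3 did not pass. These shares, 33.3% fallen and 16.7% risen, are near the 24.8% and 24.3% of all genes tested. Emilin1, which coats elastic fibres, was the most abundant at 121, 113 and 116 CPM with the mimic and 125, 121 and 123 CPM with the control. Its groups overlapped, and its log2 change of -0.08 lost the call without mimic replicate 2, mimic replicate 3, control replicate 1 or control replicate 3 (adjusted p = 0.174, 0.0872, 0.0848 and 0.0559, edgeR). Its relative Emilin2 fell clearly, with 92, 93.3 and 98 CPM in the mimic libraries, against 124, 121 and 122 CPM in the control libraries (log2 change -0.37 ± 0.03 (SE)). Fbn1, which encodes the microfibril protein fibrillin-1, rose, with 19.4, 20.3 and 19.9 CPM with the mimic and 14.1, 15.1 and 15.7 CPM with the control (log2 change 0.41 ± 0.06 (SE)). The fibulin genes Fbln2, Fbln5 and Efemp2 did not pass (log2 changes of -0.26, 0.10 and 0.05), and Eln, the elastin gene, had at most 8 counts in any library.

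Of the proteoglycans outside the basement membrane 2 fell and 1 rose, against 24.8% and 24.3% of all genes tested. Vcan, the gene of the large hyaluronan-binding proteoglycan versican, had 56.3, 58.5 and 56 CPM in the mimic libraries, against 66.6, 63.2 and 61.6 CPM in the control libraries. The groups did not overlap, and the log2 change was -0.16 ± 0.04 (SE). Bgn, the gene of biglycan, was low at 3.85, 4.44 and 4.25 CPM with the mimic and 5.38, 5.31 and 5.26 CPM with the control, and its log2 change of -0.34 lost the call without mimic replicate 1 (log2 change -0.28, adjusted p = 0.0581, edgeR). Lum, which encodes the collagen-binding proteoglycan lumican, had 37, 53 and 52 counts in mimic libraries, against 20, 25 and 21 in control libraries, a 2.44-fold rise. Dcn, its neighbour on chromosome 10, had at most 3 counts in any library.

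Of the 9 tested collagen-modifying enzymes 5 rose and 2 fell, against 24.3% and 24.8% of all genes tested. P4ha1 and P4ha2 encode catalytic subunits of the prolyl 4-hydroxylase that stabilises the collagen helix. P4ha1, the most abundant of the group by FPKM, had 136, 131 and 133 CPM in the mimic libraries, against 123, 119 and 119 CPM in the control libraries (log2 change 0.15 ± 0.03 (SE)). P4ha2 had 45.4, 43.8 and 45 CPM with the mimic and 32.9, 32.4 and 30.0 CPM with the control, a larger rise (0.50 ± 0.04 (SE)). The third subunit gene, P4ha3, was low at 0.521, 0.939 and 0.702 CPM with the mimic and 2.22, 2.12 and 2.17 CPM with the control and fell, with a log2 change of -1.57 ± 0.22 (SE) (adjusted p = 4.18e-07, edgeR). Plod2, the lysyl hydroxylase of collagen telopeptides, had 137, 133 and 133 CPM in the mimic libraries, against 105, 97.5 and 97.8 CPM in the control libraries. All 3 mimic libraries were higher (log2 change 0.42 ± 0.03 (SE)), while its relatives Plod1 and Plod3 did not pass (log2 changes of 0.00 and 0.05). Among the lysyl oxidase-like cross-linkers Loxl4 had 7.9, 6.5 and 7.55 CPM with the mimic and 5.74, 4.75 and 5.59 CPM with the control (log2 change 0.44) and Loxl2 a log2 change of 0.14. Loxl3 went the other way, with 23.2, 22.1 and 21.6 CPM with the mimic and 36.5, 35.3 and 34.7 CPM with the control (log2 change -0.67 ± 0.05 (SE)). The exons of Loxl3 share 535 of their 4603 bases with Htra2, a gene on the other strand with more reads, whose own log2 change was -0.10. Thbs3 shares 318 of 4823 bases with Mtx1 in the same way (log2 change 0.22). The libraries are strand-specific, but the strand setting of the counting is not given in the sources used here, so reads of such pairs may be mixed.

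Close relatives did not always move together. Of the 58 tested matrix genes 41.4% rose and 39.7% fell, so small sets of unrelated members can also hold both directions. Whether relatives differed more often than such sets was not tested. Of 13 families with at least 2 tested genes, 7 held both a risen and a fallen gene: type V and type VI collagens, laminin beta chains, thrombospondins, matrilins, lysyl oxidase-like enzymes and prolyl 4-hydroxylases. In type VI collagen the risen gene was Col6a2, whose call depends on the setting as given above. The other 6 families were type IV collagens and laminin gamma chains (risen genes only), laminin alpha chains and emilins (fallen only), lysyl hydroxylases (1 risen, 2 not called) and fibulins (none called).

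**Figure D3:**
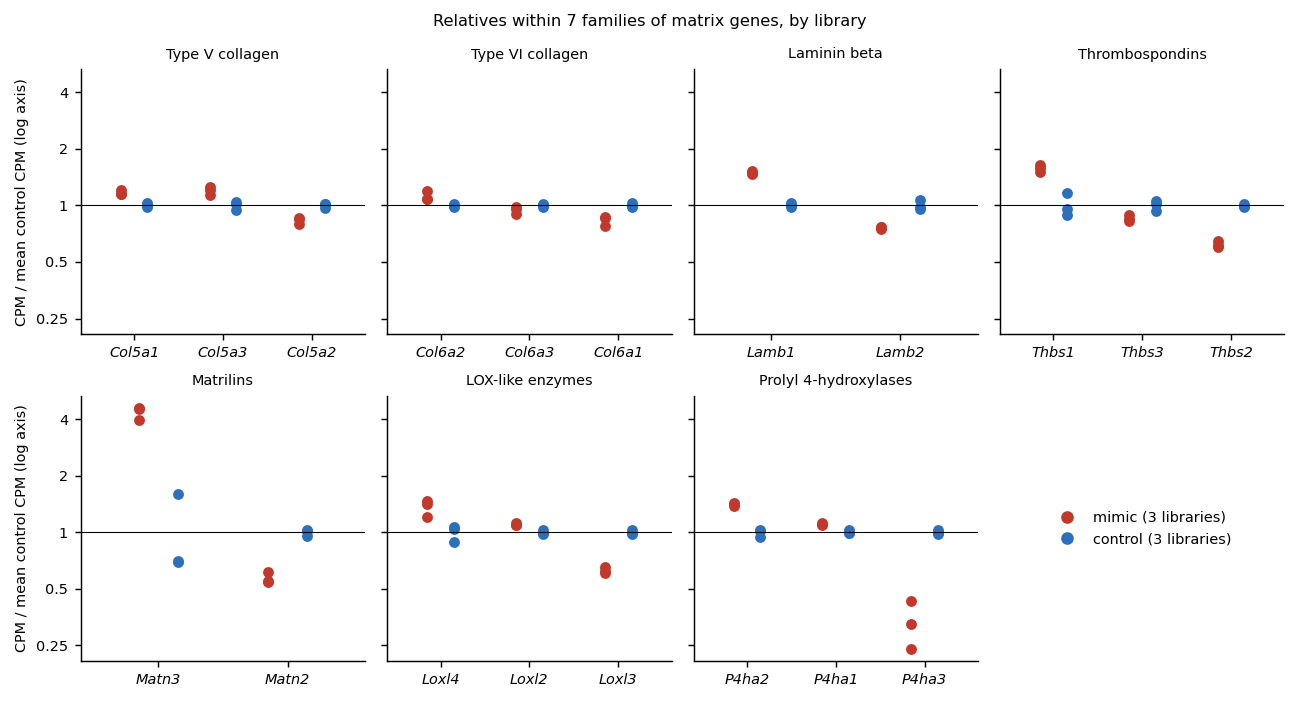
CPM of each library divided by the mean control CPM of the gene (log axis), for the 7 families with genes called in both directions; mimic libraries stand left of control libraries for each gene. Matn3 lies above its control level and Matn2 below it, and P4ha3 is the low gene of its family with the widest scatter.

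For chains that assemble with each other the balance of transcripts was described by ratios of FPKM within each library, given without a test. The ratio of Col5a1 to Col5a2 was 6.22, 6.02 and 6.36 in the mimic libraries, against 4.44, 4.31 and 4.45 in the control libraries. The ratio of Col6a1 to Col6a2 was 3.42, 3.74 and 3.43 in the mimic libraries, against 4.8, 4.7 and 4.7 in the control libraries. Neither ratio overlapped between groups, the first being higher and the second lower with the mimic. The ratio of Lamb1 to Lamc1 was 1.75, 1.8 and 1.71 in the mimic libraries, against 1.54, 1.47 and 1.51 in the control libraries, also without overlap. Col4a1 to Col4a2 moved least, at 1.41, 1.44 and 1.39 in the mimic libraries, against 1.32, 1.35 and 1.36 in the control libraries, although here too the lowest mimic value was above the highest control value. FPKM depends on the gene length the authors used, so the ratios compare libraries better than chains. The ratio of Col1a1 to Col1a2 was not formed because both were below 0.5 FPKM.

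**Figure D4:**
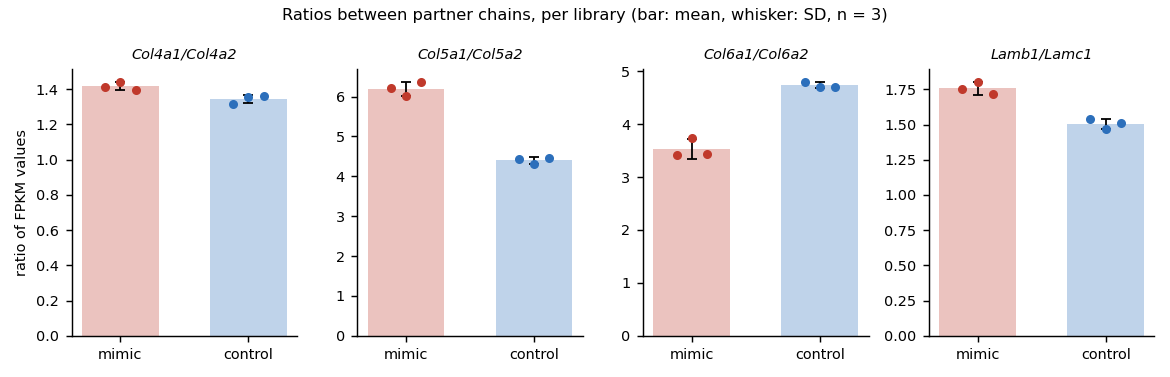
Ratio of FPKM values between 2 partner chains in each library (points), with the mean (bar) and SD (whisker, n = 3), mimic left of control. The Col5a1 to Col5a2 ratio averages 6.2 in mimic and 4.4 in control libraries, and the Col6a1 to Col6a2 ratio 3.53 in mimic and 4.73 in control libraries.

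Some of these genes are neighbours in the genome (GENCODE M21, GRCm38). Col4a1 (chr8:11198423-11312826, minus strand) and Col4a2 (chr8:11312805-11449287, plus strand) start head to head with first exons that overlap by 22 bases, and both rose. Col3a1 and Col5a2 lie tail to tail on chromosome 1 with 24614 bases between them, and both fell. Col6a2 and Col6a1, on the same strand of chromosome 10 and 85161 bases apart, had changes of opposite sign.

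Few of the matrix genes carry a 7-base or 8-base match to the seed of miR-291a-3p, and the carriers went both ways. Matches were sought in the longest annotated 3' UTR of each gene (GENCODE M21, GRCm38, not the build of the deposited values) on the transcript strand only, and each gene was put in the class of its longest match. The letters sought were AGCACTTA for an 8mer, AGCACTT for the 7mer-m8, GCACTTA for the 7mer-A1 and GCACTT for the 6mer. Of the 58 tested genes 8 (13.8%) held a 7-base or 8-base match, against 20.9% of 11559 tested protein-coding genes. Of these 8 genes 5 rose and 3 fell, and of the 50 others 19 rose and 20 fell. Among all genes with such a match 18.1% rose and 38.6% fell. The median log2 change was 0.11 for the 8 matrix genes and 0.05 for the other 50, against -0.07 and 0.01 over all genes with and without a match. A set of 8 genes is too small to read an order from these medians. The 3' UTRs searched had a median of 966 bases in the matrix genes and 1169 in all protein-coding genes tested. The part of this length in the share with a match was not tested.

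The sites are shown as the 22 bases that lie opposite the microRNA, with the match in capitals, because they let the matrix genes with a seed match be set beside those that changed most. The 2 genes with an 8mer, P4ha1 and Loxl2, both rose (log2 changes of 0.15 and 0.14). The P4ha1 site lies at chr10:59372452-59372459 (from base 1378 to base 1385 of the 2230 in its 3' UTR, plus strand) and the Loxl2 site at chr14:69694007-69694014 (from base 888 to base 895 of the 2715 in its 3' UTR, plus strand). Of the genes with a 7mer-m8, Col4a2 (chr8:11448983-11448989), Nid1 (chr13:13510379-13510385) and Col18a1 (chr10:77052354-77052360) rose, and Col17a1 (chr19:47646436-47646442) and Lama3 fell. Matn2 holds a 7mer-A1 at chr15:34345929-34345935 and fell.
P4ha1: atatctttggtcctAGCACTTA
Loxl2: gtagctgctttctgAGCACTTA
Col4a2: gaggaggagatgatAGCACTTt
Nid1: atgcctgcaaccctAGCACTTg
Col18a1: cagcagccacatgaAGCACTTg
Col17a1: ttggtttttatttaAGCACTTt
Matn2: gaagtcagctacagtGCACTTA

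Fn1, which fell most among the matrix genes with at least 2 CPM, holds none of the 4 matches in its 3' UTR of 692 bases, and neither do Col3a1, Loxl3 and P4ha3. Thbs2 holds 3 copies of the 6mer and no longer match. The risen genes Col7a1, Lamb1, Sparc and Matn3 also hold none. The absence of these letters says nothing of sites elsewhere in the transcript or of imperfect pairing. When each gene was instead represented by its transcript of longest coding sequence, 6 genes held a 7-base or 8-base match, since those of Col18a1 and Matn2 lie in other transcripts, and 4 of the 6 rose and 2 fell.

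**Figure D5:**
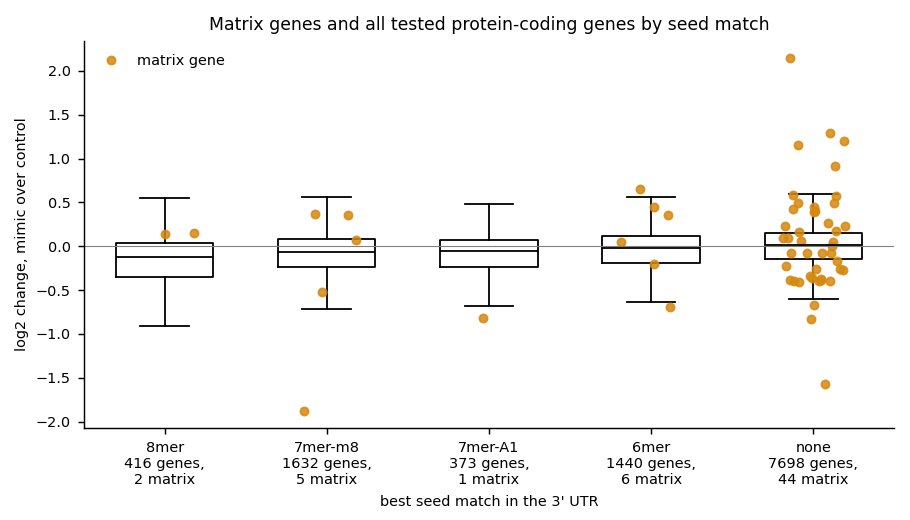
Log2 change, mimic over control, by the best seed match in the 3' UTR, over all tested protein-coding genes (box: quartiles and median, whisker: furthest gene within 1.5 box lengths, outlying genes not drawn) and for the matrix genes (points). The median of all genes with an 8mer is -0.13 and that of genes with none 0.02, while both matrix genes with an 8mer lie above 0.

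Genes that fold, export and trim collagen went both ways. Of 26 tested genes of this list 15 rose, 6 fell and 5 did not pass, where 24.3% of all genes tested rose and 24.8% fell, or 29.2% and 28% of those with at least 2 CPM. The median log2 change was 0.09. Serpinh1, the collagen chaperone HSP47, averaged 583 ± 5.59 CPM in mimic libraries and 446 ± 5.14 CPM in control libraries (SD, n = 3 each), a log2 change of 0.39, and Fkbp10, a prolyl isomerase of collagen folding, had a log2 change of 0.38. The enhancers of procollagen cleavage moved apart: Pcolce averaged 522 ± 7.62 CPM in mimic libraries and 695 ± 13.4 CPM in control libraries (log2 change -0.41), and Pcolce2 had a log2 change of 0.44. These 4 genes had the smallest adjusted p of the list (each at most 1.69e-11, edgeR).

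Other lists around the matrix had no single direction, and their counts stand against the same shares of 24.3% risen and 24.8% fallen among all genes tested. Of 24 other tested matrix glycoproteins, proteoglycans and growth factor binders 5 rose and 8 fell (median log2 change -0.01), led by the matricellular gene Ccn1 (1.26), the latent TGF-beta binding protein gene Ltbp3 (-0.49) and the syndecan genes Sdc1 (-0.38) and Sdc4 (0.25). Of 17 receptors for matrix 6 rose and 6 fell (median 0.03). Among them Itga3, an integrin chain of laminin receptors, averaged 115 ± 1.44 CPM in mimic libraries and 70.2 ± 4.17 CPM in control libraries (log2 change 0.71), Itgb1 and Itgav had log2 changes of 0.18 and 0.25, and the collagen receptor kinase gene Ddr1 -0.59. Of 15 genes of TGF-beta signalling, a pathway that induces many matrix genes, 7 rose and 3 fell (median 0.13). Tgfbr2, its type II receptor, had a log2 change of -1.04, while the repressor genes Ski (0.33) and Tgif1 (0.24) rose. Smad7 (0.52), Skil (0.46), the receptor gene Tgfbr1 (0.16) and Smad4 (0.13) also rose, and Tgfb3 (-0.29) and Smad2 (-0.17) fell. Of 18 matrix-degrading proteases and inhibitors 7 rose and 7 fell (median -0.01), led by Mmp3 (-1.72), Ctsb (-0.29), Timp1 (-0.28) and Ctsl (0.10).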

How the data were processed

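Per the labels' protocols, RNA was taken with TRIzol and made into strand-specific paired-end libraries of polyadenylated RNA. Of tools and builds, the submitters' processing notes list HISAT2, DESeq2 and GRCm39. The counter, the release of the annotation and the use of strand in counting were not given in the sources used here. Deposited by the authors were read counts per gene for 24794 genes and FPKM values, rounded to 2 decimals, for 24494 of them. Members of the matrix gene set, role groups and lists were chosen with earlier results of these data known.

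Groups were taken from the titles. The count test was that of edgeR 4.0.16, run under R 4.3.3 on all genes (filterByExpr, TMM, glmQLFit, glmQLFTest, Benjamini-Hochberg over 13779 genes, threshold 0.05). CPM uses TMM-scaled library sizes, and an SE is the log2 change divided by the square root of F. FPKM was used for levels and ratios. Libraries of a group differed by more than sampling noise (mean chi-square per gene 1.86 to 2.22). The spread beyond that noise was small, with a common biological coefficient of variation of 2.02%. At so small a spread modest changes can be called. By rule the text names all called matrix genes, the most abundant gene of each role, and the 4 called genes with the smallest adjusted p of each list, of which 2 genes are not reported here. Genes not called, those below the filter, the overlapping Htra2 and Mtx1, further called TGF-beta genes and the cell type markers were added to show the rest. Lists were described by counts with no set test. Counts were also simulated for the mimic against control comparison (13637 genes), with 65, 67 and 64 genes changed by 1.2-fold, 1.5-fold and 2-fold. The share of changed genes recovered was 56.9% at 1.2-fold, 82.1% at 1.5-fold and 85.9% at 2-fold. Of 13441 unchanged genes 9 were called. In the data 49.1% of genes tested were called, so far fewer genes change in the simulation. The adjustment is stricter there, and its shares do not carry over to the data. Alternatives were other scalings, DESeq2 1.42.0, other filters, limma 3.58.1 on log2(FPKM + 1) and log2(FPKM + 0.1), a block for the replicate number, an adjusted p under 0.01, and each library left out. Python 3.11.15 was used for the seed matches.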

Additional observations from a re-analysis of the deposited data

How the results depend on the processing

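The counts of 24 risen and 23 fallen matrix genes stayed within 1.5 times under every alternative run, from 18 to 27 risen and from 19 to 24 fallen, and none of the 47 called genes changed sign in any of them that tested it. DESeq2 size factors kept all 47 calls. Scaling by total counts only, which moved the median of all genes tested to -0.06, lost Col18a1 and Col6a2. The DESeq2 Wald test and an adjusted p under 0.01 each lost Bgn, Col6a3, Emilin1, Lama5 and Lamc3, and testing without a filter lost 3 of these. With limma the filter on low FPKM left 42 of the 47 to test. limma on log2(FPKM + 1) or log2(FPKM + 0.1) lost Col18a1, Col6a2, Col6a3 and Col8a1, leaving 3 risen basement membrane and network collagens in place of 5, and without its filter limma also lost Col24a1, Col5a3 and Loxl4. Leaving out 1 library lost from 1 to 3 calls. The cause was not tested. Genes under 2 CPM, such as Col17a1, P4ha3, Lum and Lamc3, rest on few counts, which limits the precision of their folds. The samples with the same replicate number share only a number: their deviations correlated by 0.0196 to 0.0748, each library best with its own number, a hint from the data and not from the design. The replicate block gave 24 risen and 23 fallen, the same 47 genes.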
